A study of Mus musculus with 20 samples.

Results

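The transcripts described here are those of the mouse mitochondrial genome, taken as every gene of the deposited table whose identifier maps to a symbol starting with mt-. The rule found 36 of 25851 genes: 13 mRNAs, 2 rRNAs and 21 tRNAs. The annotation holds 37 genes on the mitochondrial chromosome, and the remaining one, the phenylalanine tRNA mt-Tf, was not analysed here. Whole-heart RNA came from male mice aged 14 to 16 weeks in 4 groups of 5 mice: sedentary wild-type, sedentary cardiomyocyte PGC-1α knockout, and both genotypes after 6 weeks of voluntary wheel running. The promoter that drives the deletion, the deleted exons and the strain are not given in the sources used here, and the wild-type mice are described only by that name. PGC-1α is the coactivator encoded by Ppargc1a, a regulator of mitochondrial gene expression. Its transcript was higher in the libraries labelled knockout (22.9 ± 4.41 FPKM sedentary and 22.6 ± 3.01 trained, SD, n = 5) than in wild-type libraries (12.3 ± 2.85 and 15.8 ± 4.86), and the value covers all exons, so these groups are called labelled knockout throughout. FPKM is a count of sequenced fragments divided by transcript length and a size per library, so levels of different mRNAs can be compared per length where their tails are alike. The libraries were poly(A)-selected, which limits such comparisons with the rRNAs, the tRNAs and any mRNA without a tail. Tails were not measured here, for mt-Nd6 or any other mRNA.

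Mitochondrial DNA is a small circle transcribed from both strands as long precursors that run through nearly all its genes. Endonucleases cut the tRNAs out of these precursors, which frees the mRNAs and rRNAs between them, and most mRNAs then receive a short poly(A) tail. The mRNAs encode core subunits of respiratory complexes I, III, IV and V, the rRNAs form the mitochondrial ribosome, and the heart, with its dense mitochondria, carries these RNAs at high levels. The remaining subunits of those complexes, and all proteins that copy, process and translate these RNAs, are encoded in the nucleus.

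Several sequences show how poly(A) selection and the compact genome bear on these values. All come from GENCODE M21 transcripts (GRCm38, the build called mm10 in the labels), each written 5′ to 3′ on its own strand. The last 21 bases of 4 mRNAs follow, with the annotated stop codon or the lone T of an incomplete one in capitals. The stop codon of mt-Co1 is complete, while mt-Co3, mt-Nd4 and mt-Cytb end in a T, a stop codon that is known to be completed by polyadenylation.
mt-Co1 (chrM:6852-6872, plus strand): acctatgtaaaagtaaaaTAA
mt-Co3 (chrM:9370-9390, plus strand): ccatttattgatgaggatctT
mt-Nd4 (chrM:11524-11544, plus strand): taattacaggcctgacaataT
mt-Cytb (chrM:15268-15288, plus strand): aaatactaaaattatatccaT

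The reading frames of mt-Atp8 and mt-Atp6, encoded on 1 shared mRNA, overlap by 43 bases. That overlap is shown because a read within it belongs to both genes, and the capitals mark the start codon of mt-Atp6.
mt-Atp8 and mt-Atp6 overlap (chrM:7927-7969, plus strand): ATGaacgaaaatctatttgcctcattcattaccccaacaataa

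Mitochondrial rRNAs carry very short tails in mammals, so their longest run of A is shown with 15 bases on each side, the run in capitals. It is 5 bases long in mt-Rnr1 and 7 in mt-Rnr2.
mt-Rnr1, 12S rRNA (chrM:690-724, plus strand): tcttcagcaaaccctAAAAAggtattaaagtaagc
mt-Rnr2, 16S rRNA (chrM:1473-1509, plus strand): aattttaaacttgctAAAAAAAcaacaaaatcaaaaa

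Among the tRNAs, 3 with high values and the 3 that failed the filter on low values are shown whole, with the longest run of A (the first one where runs tie) in capitals. Among those shown, that run was no longer in the 3 tRNAs with high values (3 bases in each) than in the 3 near 0 (3 or 4 bases). In other tRNAs with high values it was 2 bases (mt-Tp) or 4 bases (mt-Ty and mt-Tl1).
mt-Tn, asparagine tRNA (chrM:5089-5159, minus strand): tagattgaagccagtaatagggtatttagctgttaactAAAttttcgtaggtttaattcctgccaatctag
mt-Tc, cysteine tRNA (chrM:5192-5257, minus strand): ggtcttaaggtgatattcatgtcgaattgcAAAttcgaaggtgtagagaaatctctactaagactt
mt-Te, glutamate tRNA (chrM:14071-14139, minus strand): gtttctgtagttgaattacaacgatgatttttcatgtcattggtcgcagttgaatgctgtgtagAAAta
mt-Td, aspartate tRNA (chrM:6942-7011, plus strand): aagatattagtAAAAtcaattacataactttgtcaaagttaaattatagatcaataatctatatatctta
mt-Tk, lysine tRNA (chrM:7700-7764, plus strand): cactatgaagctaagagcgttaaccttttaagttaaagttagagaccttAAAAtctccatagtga
mt-Tg, glycine tRNA (chrM:9391-9458, plus strand): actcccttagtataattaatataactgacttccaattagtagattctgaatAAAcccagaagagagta

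Libraries held 14.2 to 30.4 M reads assigned to genes, as recovered from FPKM and exon length, of which 2412529 to 5281989 reads lay on mitochondrial mRNAs, 64390.0 to 157356 on the rRNAs and 6123 to 17544 on the tRNAs. The 5 libraries of a group are separate mice, all under 1 batch label. Cardiomyocyte markers summed to 20676 to 26124, 20945 to 24762, 17879 to 23181 and 14444 to 16697 FPKM in the groups in the order sedentary wild-type, sedentary labelled knockout, trained wild-type and trained labelled knockout, with none of the 9 at 0. Some libraries stood apart. Myl7, the atrial myosin light chain, exceeded 1000 FPKM in 4 trained libraries (wild-type replicates 4 and 5, labelled knockout replicates 2 and 5), and Arntl, a clock gene, exceeded 2 FPKM in 5 sedentary libraries (wild-type replicates 1 to 4, labelled knockout replicate 1). For some of the calls described below the result without these libraries is given, and for the others, such as most calls of nuclear genes, it is not.

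Between 11.4 and 23.5% of the reads of a library came from the mitochondrial genome, nearly all of them from mRNAs. The mRNAs took 19.7% ± 2.04 of reads in sedentary wild-type, 17.3% ± 0.436 in sedentary labelled knockout, 17.3% ± 2.06 in trained wild-type and 14.6% ± 2.31 in trained labelled knockout hearts (SD, n = 5 each). The rRNAs took 0.564% ± 0.0518, 0.475% ± 0.0430, 0.695% ± 0.0817 and 0.414% ± 0.0748 in the same order, and were highest in trained wild-type hearts. The tRNAs took 0.0669% ± 0.00980, 0.0525% ± 0.00213, 0.0519% ± 0.0103 and 0.0380% ± 0.00655. These shares describe a poly(A)-selected library and not the abundance of RNAs without a tail. In pieces of whole heart, fewer cells of a type and less RNA per cell cannot be told apart.

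Among the mRNAs, mt-Co1, the catalytic subunit of complex IV, was the highest at 49190.5 FPKM averaged over the 20 libraries, and took 40.3 to 44.9% of mitochondrial mRNA reads. It was followed by mt-Cytb of complex III (25924 FPKM) and mt-Nd1 of complex I (19969.7 FPKM), and this order held in 20 of 20 libraries. Complex I subunits mt-Nd2 (12660.0 FPKM), mt-Nd6 (11895), mt-Nd4 (10864) and mt-Nd5 (8797) came next. The order of mt-Nd2 over mt-Nd6 and of mt-Nd6 over mt-Nd4 held in 15 of 20 libraries each, so these neighbours did not separate beyond their spread.

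The mean of mt-Nd5 was 3.47-fold that of the next mRNA, the complex V subunit mt-Atp6 (2537 FPKM). mt-Nd5 was the higher of the 2 in all 20 libraries, but the gap varied. In sedentary wild-type replicate 5 they were at 8753 and 6581 FPKM. The complex IV subunits mt-Co2 (2291) and mt-Co3 (1948) followed. The order of mt-Atp6, mt-Co2 and mt-Co3 held in 13 and 14 of 20 libraries. The lowest were mt-Nd4l (764 FPKM), mt-Nd3 (142) and mt-Atp8 (29.2). mt-Atp8 and mt-Atp6 thus differed widely although their products are encoded on 1 mRNA, as did mt-Nd4l and mt-Nd4, which overlap by 7 bases. How reads that lie on 2 genes or map to 2 places were counted is not given in the sources used here.

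**Figure D1:**
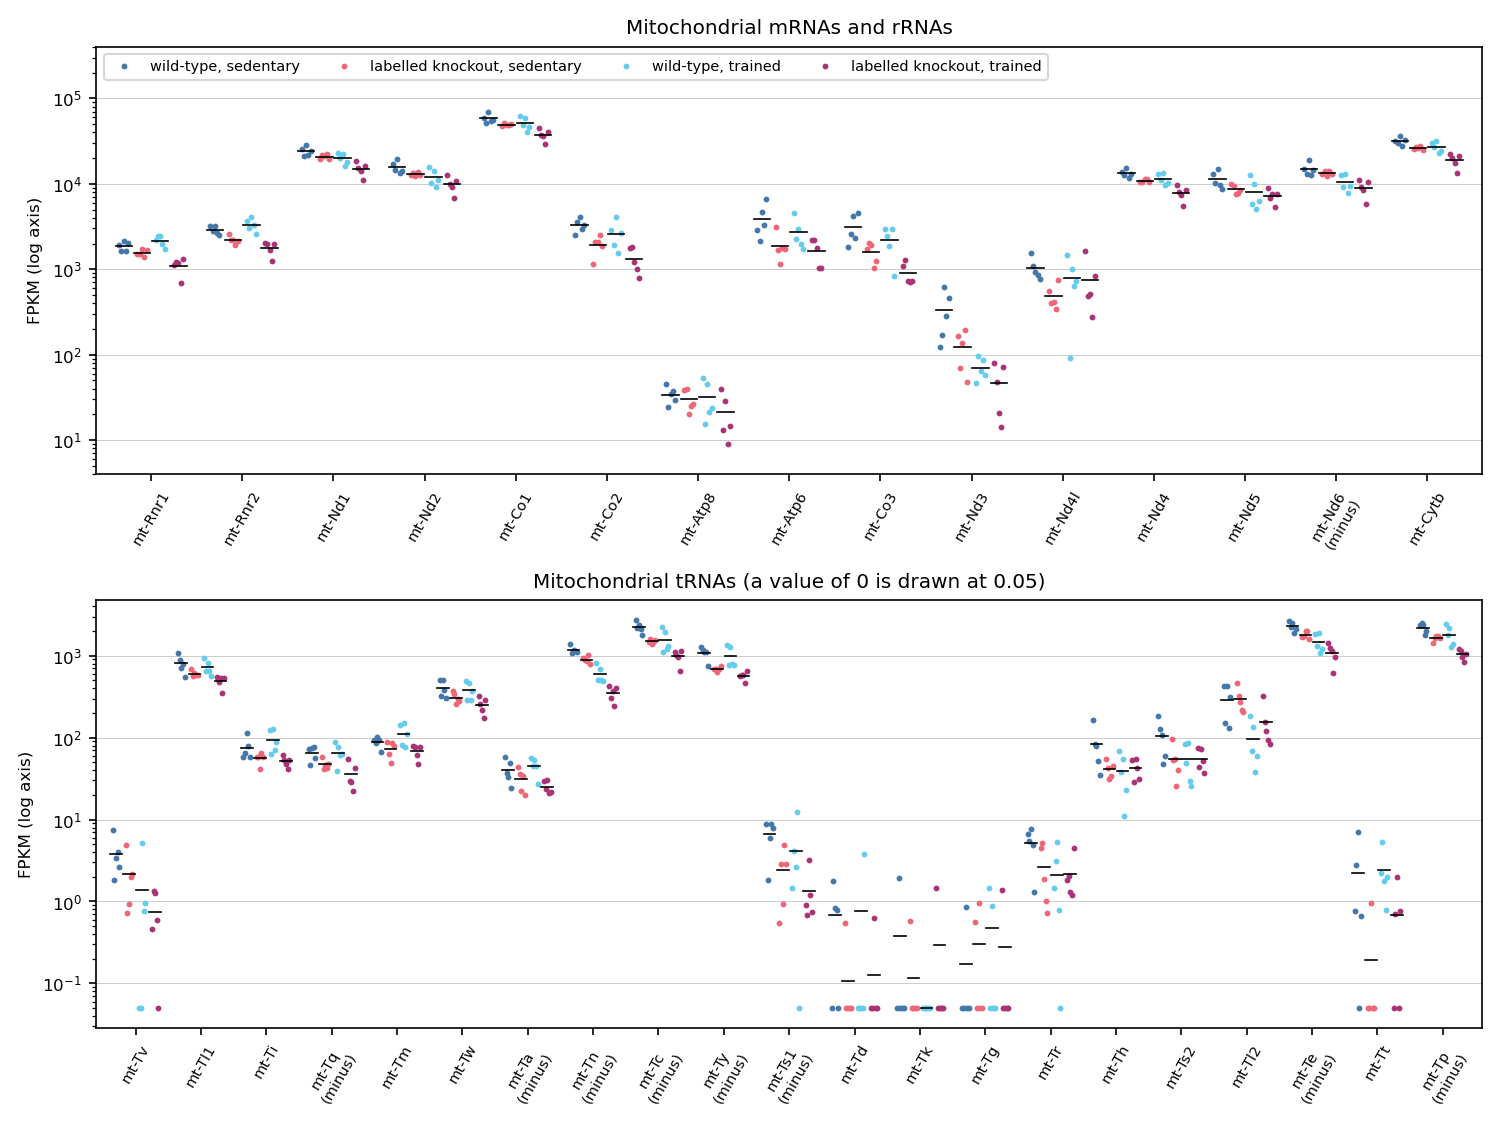
Levels in FPKM (log axis) of the 13 mRNAs and 2 rRNAs (top) and 21 tRNAs (bottom) in genome order, with 1 point per heart, 5 hearts per group, and a black bar at each group's mean; minus marks genes on the minus strand of the annotation. mt-Co1 is highest among mRNAs, mt-Nd3 and mt-Atp8 lowest, and mt-Td, mt-Tk and mt-Tg lie at or near 0.

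The rRNAs of the small and large mitochondrial ribosomal subunits, mt-Rnr1 and mt-Rnr2, averaged 1676 and 2540.0 FPKM, below mt-Nd1, the first mRNA after them on the same strand, in every group. Most tRNA reads were counted on genes annotated on the minus strand. The 8 tRNAs on the minus strand, which are transcribed with mt-Nd6 from the light-strand promoter, held 76.0 to 84.4% of tRNA reads. The highest averages were those of mt-Tp (1669), mt-Te (1658), mt-Tc (1574), mt-Ty (831) and mt-Tn (757 FPKM). Of the 13 on the plus strand, mt-Tl1, the leucine tRNA between mt-Rnr2 and mt-Nd1, was highest (658 FPKM), and 6 averaged at most 3.05 FPKM. Neighbours within the cluster of 4 minus-strand tRNAs before mt-Co1 differed, with mt-Ta at 35.5 FPKM beside mt-Tn. Read counts behind these values ranged from 1024 to 3544 per library for mt-Tc and from 0 to 3 for mt-Tk and mt-Tg.

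The minus-strand genes lie opposite the plus-strand precursor. Only 14 of the 519 bases of mt-Nd6 are covered by an annotated gene of the opposite strand, the end of mt-Nd5, and none of mt-Tn, mt-Tc, mt-Ty, mt-Te and mt-Tp is covered. The library kit keeps strand, but the strand setting of the counting is not given in the sources used here. Without it, reads from plus-strand precursors or untranslated ends at these places and reads from the minus-strand genes cannot be told apart. That limit holds for every value of mt-Nd6 and the minus-strand tRNAs above and below.

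Some members share their sequence with the nuclear genome. Alignment of the 37 mitochondrial transcripts to all annotated transcripts found 11 nuclear copies with at least 95% identity over at least 200 bases. Of these, 7 lie in order on the minus strand of chromosome 1 (chr1:24611535-24616197, GRCm38). Their matches lie within a span of 4653 bases of mitochondrial DNA, chrM:6390-11042, called the copied stretch below. It touches 8 mRNAs and 5 tRNAs (mt-Ts1, mt-Td, mt-Tk, mt-Tg and mt-Tr). The bases between the matches were not aligned. The tRNAs are shorter than the 200 bases required and mt-Atp8 had no match that passed, so copies of these were not shown. The aligned parts of Gm28661 (mt-Co2), Gm10925 (mt-Atp6), Gm28437 (mt-Co3), Gm10222 (mt-Nd4l) and Gm28439 (mt-Nd4) were 100% identical to the mitochondrial genes. The other 2 differed at a single base, shown here with the differing base in capitals and positions counted from 1 at the start of the mitochondrial transcript (T3C for mt-Nd3 and A1066T for mt-Co1, mitochondrial base first).
mt-Nd3 (chrM:9459-9476, plus strand): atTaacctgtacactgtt
Gm28438, same place: atCaacctgtacactgtt
mt-Co1 (chrM:6390-6408, plus strand): ggaAttgttttatccaact
Gm29216, same place: ggaTttgttttatccaact

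The deposited values gave these copies reads of their own. Of the reads of mt-Nd3 and Gm28438 together, a median of 70.6% (33.5 to 87.0%) over the 20 libraries were counted on the nuclear copy. The median share was 23.1% (17.2 to 43.1%) for mt-Co2, 21.0% (9.02 to 35.0%) for mt-Co3, 20.8% (8.57 to 36.0%) for mt-Atp6 and 17.7% (13.1 to 51.2%) for mt-Nd4l. It was 1.10% for mt-Nd4 and 0.384% for mt-Co1, of which the copies cover only 63.6% and 31.3%. mt-Atp8 lies within the stretch, where no copy of it is annotated. Values of mt-Co2, mt-Atp8, mt-Atp6, mt-Co3, mt-Nd3 and mt-Nd4l are therefore uncertain as levels of the mitochondrial transcript. The 8 mRNAs that touch the copied stretch varied more between mice of a group (median coefficient of variation 37.1%, range 12.6 to 56.5%) than the 5 outside it (18.4%, 12.0 to 20.9%), a description of these genes with no test, although mt-Co1 and mt-Nd4, touched in part, varied as little as the genes outside. The part of multiple mapping in this spread was not tested.

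**Figure D2:**
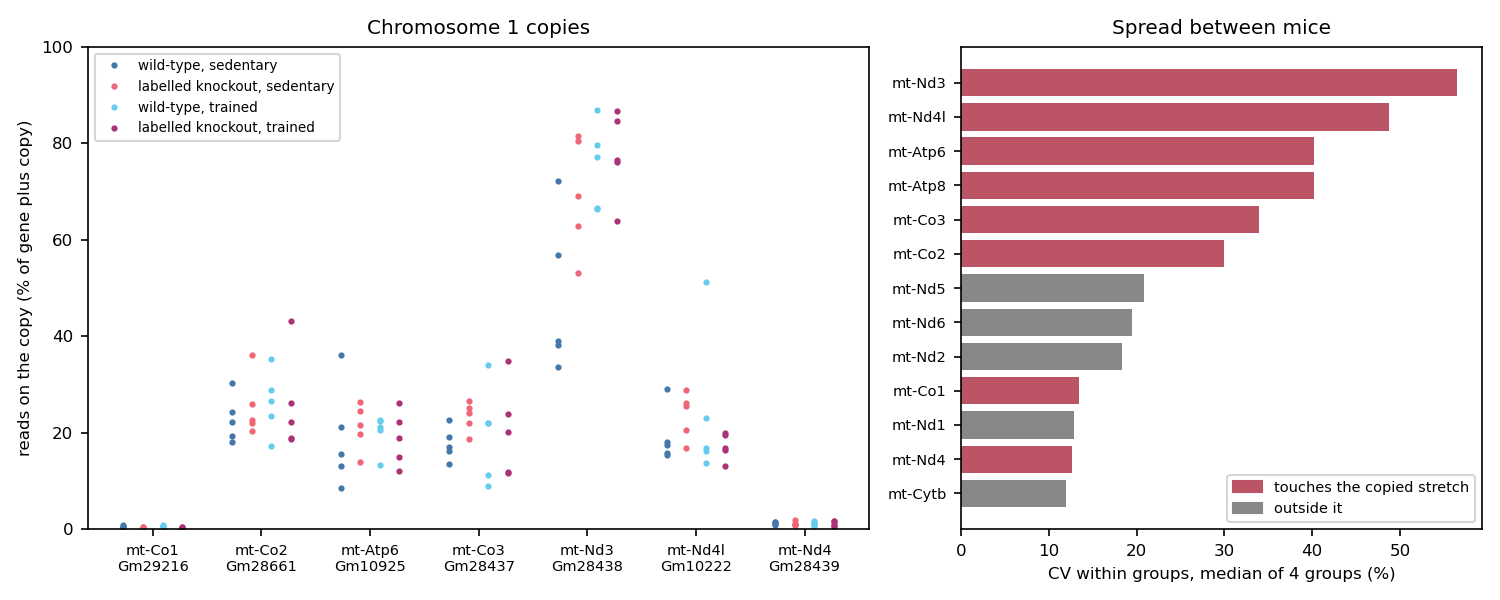
Left, reads counted on each chromosome 1 copy as a percentage of the reads of mitochondrial gene plus copy, 1 point per heart. Right, coefficient of variation within groups (median of 4 groups, %) of each mitochondrial mRNA, coloured by whether it touches the copied stretch; mt-Nd3 has the highest share on its copy and the highest spread.

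The first comparison asked how the mitochondrial transcripts of sedentary hearts differed by labelled genotype. All 13 mRNAs had lower means in sedentary labelled knockout than in sedentary wild-type hearts, with a median log2 fold change of -0.28 beside -0.0090 over all genes tested, but only mt-Atp6 passed the test. That is 1 of 13 mRNAs called lower and 0 higher, beside 6.32% of all 13723 tested genes called lower and 6.96% higher. mt-Atp6, a proton channel subunit of complex V, was at 2898, 2131, 4716, 3293 and 6581 FPKM in the 5 sedentary wild-type hearts, in replicate order, and at 3112, 1692, 1138, 1789 and 1739.6 FPKM in the labelled knockout. The groups overlapped, and wild-type replicate 5 was the highest. The log2 fold change of mt-Atp6 was -1.02 ± 0.33, adjusted p = 0.0478 (± SE, limma with Benjamini-Hochberg adjustment over all genes), and the call was lost when any 1 of 14 libraries was left out (all but sedentary wild-type replicate 2, sedentary labelled knockout replicate 1, trained wild-type replicates 1 and 5 and trained labelled knockout replicates 4 and 5), with adjusted p up to 0.125.

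Single-library values separated the sedentary groups more often than the test did. The groups did not overlap for 5 of 13 mRNAs (mt-Co1, mt-Co2, mt-Nd4, mt-Nd4l and mt-Cytb), all lower in the labelled knockout, beside 5.29% of all tested genes without overlap in that direction. mt-Cytb, the cytochrome b of complex III, was at 31704, 29718, 36338, 27905 and 32228 FPKM in sedentary wild-type hearts. In sedentary labelled knockout hearts it was at 25477, 26984, 26492, 27493 and 24868 FPKM, every value below the lowest wild-type one. Its log2 fold change was -0.26 ± 0.13, adjusted p = 0.196 in the limma fit. The lower spread of the labelled knockout group is plain in these values, with an SD of 1078 against 3164 FPKM.

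Neither rRNA passed in sedentary hearts (mt-Rnr1 -0.25 and mt-Rnr2 -0.37 on the log2 scale). Of 18 tRNAs tested, only the tyrosine tRNA mt-Ty was called, lower by genotype at 690.2 ± 43.8 against 1077 ± 192 FPKM (SD, n = 5, log2 fold change -0.62 ± 0.16, adjusted p = 0.0165 by limma, or 0.0514 without sedentary wild-type replicate 1). The groups of mt-Ty, mt-Tc, mt-Tn and mt-Tp did not overlap. The sedentary groups also differed in high Arntl, in 4 of 5 wild-type and 1 of 5 labelled knockout libraries. Without those 5 libraries, which leaves 1 wild-type library assumed to vary like the other groups, no mRNA and no tRNA passed.

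Wheel running in wild-type hearts was the next comparison. All 13 mRNA means were lower in trained than in sedentary wild-type hearts (median log2 fold change -0.40, all genes -0.014), and both rRNA means were higher. Of 13 mRNAs, 1 was called lower and 0 higher, beside 2.53% of all tested genes lower and 2.94% higher. The called gene was mt-Nd3, a small complex I subunit. It was at 123, 170.3, 614, 280.4 and 455 FPKM in the 5 sedentary wild-type hearts and at 45.9, 97.3, 64.3, 87.1 and 57.0 FPKM after training. The groups did not overlap, as in 1.68% of all tested genes in that direction. The sedentary values were widely spread. The log2 fold change of mt-Nd3 was -2.03 ± 0.51, adjusted p = 0.0310 (± SE, limma). It was not called when the reads of its copy Gm28438 were added (-0.94, adjusted p = 0.0581), nor without any 1 of sedentary replicate 3 and trained replicates 2, 4 and 5 (adjusted p up to 0.0831).

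Among the 18 tRNAs, 3 were called lower with training in wild-type hearts (mt-Tn, mt-Te and mt-Tl2). The asparagine tRNA mt-Tn was at 1403, 1092, 1159.8, 1145 and 1107 FPKM in the sedentary wild-type group and 811, 511, 683, 501 and 488 FPKM after training. Every trained value lay below the lowest sedentary one. Its log2 fold change was -1.005 ± 0.15, adjusted p = 0.00295 (± SE, limma), and it was called with any single library left out. Its neighbour mt-Ta was at 40.2 ± 13.4 and 45.5 ± 11.4 FPKM (SD, n = 5, adjusted p = 0.614 by limma), and mt-Tc, next to it on the same strand, was at 2235 ± 356 and 1565 ± 505 FPKM with adjusted p = 0.0742 by limma. mt-Te, the glutamate tRNA beside mt-Nd6, fell by 0.67 on the log2 scale (adjusted p = 0.0474 by limma), a call lost without any 1 of 14 libraries (all but sedentary wild-type replicate 4, sedentary labelled knockout replicate 1, trained wild-type replicates 1 and 3 and trained labelled knockout replicates 1 and 4, adjusted p up to 0.141). The leucine tRNA mt-Tl2 fell by 1.63 (adjusted p = 0.0421), lost without any 1 of 10 (sedentary wild-type replicates 1, 3 and 5, sedentary labelled knockout replicates 2, 4 and 5, trained wild-type replicates 2, 4 and 5 and trained labelled knockout replicate 3, adjusted p up to 0.127).

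Without the 4 trained libraries with high Myl7, 2 of them wild-type, none of the 33 tested members passed in this comparison (mt-Tn -0.84, adjusted p = 0.0526 by limma). Leaving out the 5 libraries with high Arntl keeps 1 sedentary wild-type library, and mt-Tn was then at -0.92. Training and high Arntl nearly coincide in wild-type hearts, since 4 of 5 sedentary and 0 of 5 trained libraries were high, so in these hearts training and Arntl level cannot be told apart.

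Wheel running in labelled knockout hearts was tested in the same way, and 12 of 13 mRNA means were lower in trained hearts. Of 13 mRNAs, 6 fell and 0 rose (mt-Co1, mt-Cytb, mt-Nd1, mt-Nd3, mt-Nd4 and mt-Nd6), a median log2 fold change of -0.49 beside -0.024 over all genes. The exception was mt-Nd4l, at 0.40 ± 0.56 on the log2 scale. Of all tested genes 16.3% fell and 12.1% rose, so calls were common in this comparison. mt-Cytb was at 22519, 19898, 17603, 13484 and 21068 FPKM in the 5 trained labelled knockout hearts, against the sedentary values given above. No trained value reached the lowest sedentary one, a separation shared by 5 of 13 mRNAs and by 13.7% of all tested genes in that direction. The log2 fold change of mt-Cytb was -0.49 ± 0.13, adjusted p = 0.00858 (± SE, limma).

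mt-Co1 was at 48023, 51603, 48921, 48388 and 50042 FPKM in the sedentary labelled knockout group and 45311, 37385, 36685, 29378 and 39958 FPKM after training. The groups did not overlap, and trained replicate 4 was the lowest. The log2 fold change of mt-Co1 was -0.40 ± 0.14, adjusted p = 0.0333 by limma, and the call was lost without any 1 of 8 libraries (sedentary labelled knockout replicates 1, 2, 3, 4 and 5 and trained labelled knockout replicates 2, 3 and 4, adjusted p up to 0.0938). The complex I subunits mt-Nd4 (-0.49), mt-Nd1 (-0.48) and mt-Nd6 (-0.60) fell by similar amounts on the log2 scale, with adjusted p of 0.00884, 0.00917 and 0.0121, and kept the call with any library left out. mt-Nd3 fell by 1.49 (adjusted p = 0.0334), lost without any 1 of 5 libraries (sedentary labelled knockout replicates 1, 3 and 4 and trained labelled knockout replicates 3 and 4, adjusted p up to 0.108). Without the 5 libraries with high Arntl 4 mRNAs fell, mt-Co1 and mt-Nd3 losing the call (adjusted p = 0.0698 and 0.0613 by limma). Without the 4 with high Myl7 7 did, mt-Co3 being added. The count of 6 depends on how libraries are scaled. On a TPM scale, which brings every library to 1 sum and raises the median of all genes by 0.23 in this comparison, 1 mRNA fell, and with a common sum that leaves out the mitochondrial transcripts 0 did.

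The rRNA mt-Rnr1 was at 1506, 1519, 1734, 1378 and 1701 FPKM in the sedentary labelled knockout group and 1119, 1208, 1168, 694 and 1303 FPKM after training. These groups did not overlap. mt-Rnr1 fell by 0.54 ± 0.14 on the log2 scale (adjusted p = 0.00844 by limma, 0.0554 on the TPM scale), and mt-Rnr2 was at -0.33 (adjusted p = 0.0878). Among 18 tRNAs, 4 fell, all on the minus strand: mt-Tn, mt-Te, mt-Tp and mt-Tc. mt-Tn went from 939, 881, 858, 1006 and 796 to 431, 307, 367, 242 and 408 FPKM, again without overlap. Its log2 fold change was -1.38 ± 0.15, adjusted p = 7.54e-06 (± SE, limma), and on the TPM scale it was -1.10, adjusted p = 1.86e-05. The proline tRNA mt-Tp (-0.66), mt-Te (-0.78) and mt-Tc (-0.65) kept their call with any library left out. On the TPM scale mt-Tp and mt-Te passed (adjusted p = 0.0202 and 0.0170 by limma) and mt-Tc did not (-0.38, adjusted p = 0.0575).

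In trained hearts the labelled genotypes differed in all 3 classes. Of 13 mRNAs, 6 were lower and 0 higher in the labelled knockout (mt-Nd4, mt-Cytb, mt-Co1, mt-Co2, mt-Co3 and mt-Nd1), with a median log2 fold change of -0.52 beside -0.0055 over all genes. Of all tested genes 15.4% were lower and 12.5% higher. Both rRNAs were lower. mt-Rnr1 was at 2206, 2439, 2462, 1977 and 1742 FPKM among trained wild-type hearts, all above the trained labelled knockout values given above, a separation found in 11.1% of all tested genes in that direction. Its log2 fold change was -0.999 ± 0.14, adjusted p = 3.19e-05 (± SE, limma).

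The 16S rRNA mt-Rnr2 was at 3636, 3026, 4044, 3279 and 2551 FPKM among trained wild-type hearts and 2037, 1971, 1663, 1254 and 1986 FPKM in their labelled knockout counterparts. There was no overlap here either. The log2 fold change of mt-Rnr2 was -0.90 ± 0.14, adjusted p = 6.46e-05 by limma, and both rRNAs were called with any library left out and on the TPM scale (mt-Rnr1 -0.71, mt-Rnr2 -0.61). Without the 4 libraries with high Myl7 the differences were -1.29 and -1.13, and both passed.

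Among the mRNAs mt-Cytb was at 30105, 26624, 31335, 22674 and 23969 FPKM among trained wild-type hearts, without overlap with the trained labelled knockout. Its log2 fold change was -0.52 ± 0.13, adjusted p = 0.00581 (± SE, limma), and it was the only mRNA of 13 whose groups did not overlap. mt-Nd4, a proton-pumping subunit of complex I, was at 11449 ± 1699 and 7850.3 ± 1549 FPKM (SD, n = 5, log2 fold change -0.56 ± 0.13, adjusted p = 0.00362). The complex IV subunits mt-Co2 (-0.97) and mt-Co3 (-1.19) had larger differences and larger SEs (0.26 and 0.32), and lie in the stretch copied on chromosome 1. With the reads of the copies added they were at -0.97 and -1.18 and both passed. The call of mt-Co1 (-0.44) was lost without any 1 of trained wild-type replicates 1 and 3 and trained labelled knockout replicate 4 (adjusted p up to 0.0630), and that of mt-Nd1 (-0.40) without any 1 of trained wild-type replicates 1 and 3 and trained labelled knockout replicates 3 and 4 (up to 0.0817). On the TPM scale 4 mRNAs passed.

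Of 18 tRNAs, 10 were lower and 0 higher in trained labelled knockout hearts: mt-Tn, mt-Tp, mt-Ty, mt-Tc, mt-Tq and mt-Ta on the minus strand, and mt-Ti, mt-Tl1, mt-Tm and mt-Tw on the plus strand. mt-Tn (-0.77) and mt-Ty (-0.77) had adjusted p of 7.91e-04 and 0.00136 by limma. The isoleucine tRNA mt-Ti, at 122, 63.7, 128, 70.5 and 88.4 FPKM among trained wild-type hearts and 61.5, 53.3, 47.2, 41.5 and 52.8 FPKM in the labelled knockout, was higher in every wild-type library. The calls of mt-Tl1, mt-Tm and mt-Tw were lost without 1 library, for mt-Tl1 trained labelled knockout replicate 4 (adjusted p just over the threshold), for mt-Tm any 1 of trained wild-type replicate 3 and trained labelled knockout replicate 4 (up to 0.0550) and for mt-Tw any 1 of trained wild-type replicates 1 and 3 and trained labelled knockout replicates 3 and 4 (up to 0.0888). The 8 tRNAs not called included mt-Th, mt-Ts2 and mt-Tl2, which sit together between mt-Nd4 and mt-Nd5 and whose fold changes were above 0 (0.32, 0.13 and 0.72), and mt-Tv, mt-Ts1, mt-Tr and mt-Tt, which held at most 16 reads in any library. On the TPM scale 5 tRNAs passed.

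**Figure D3:**
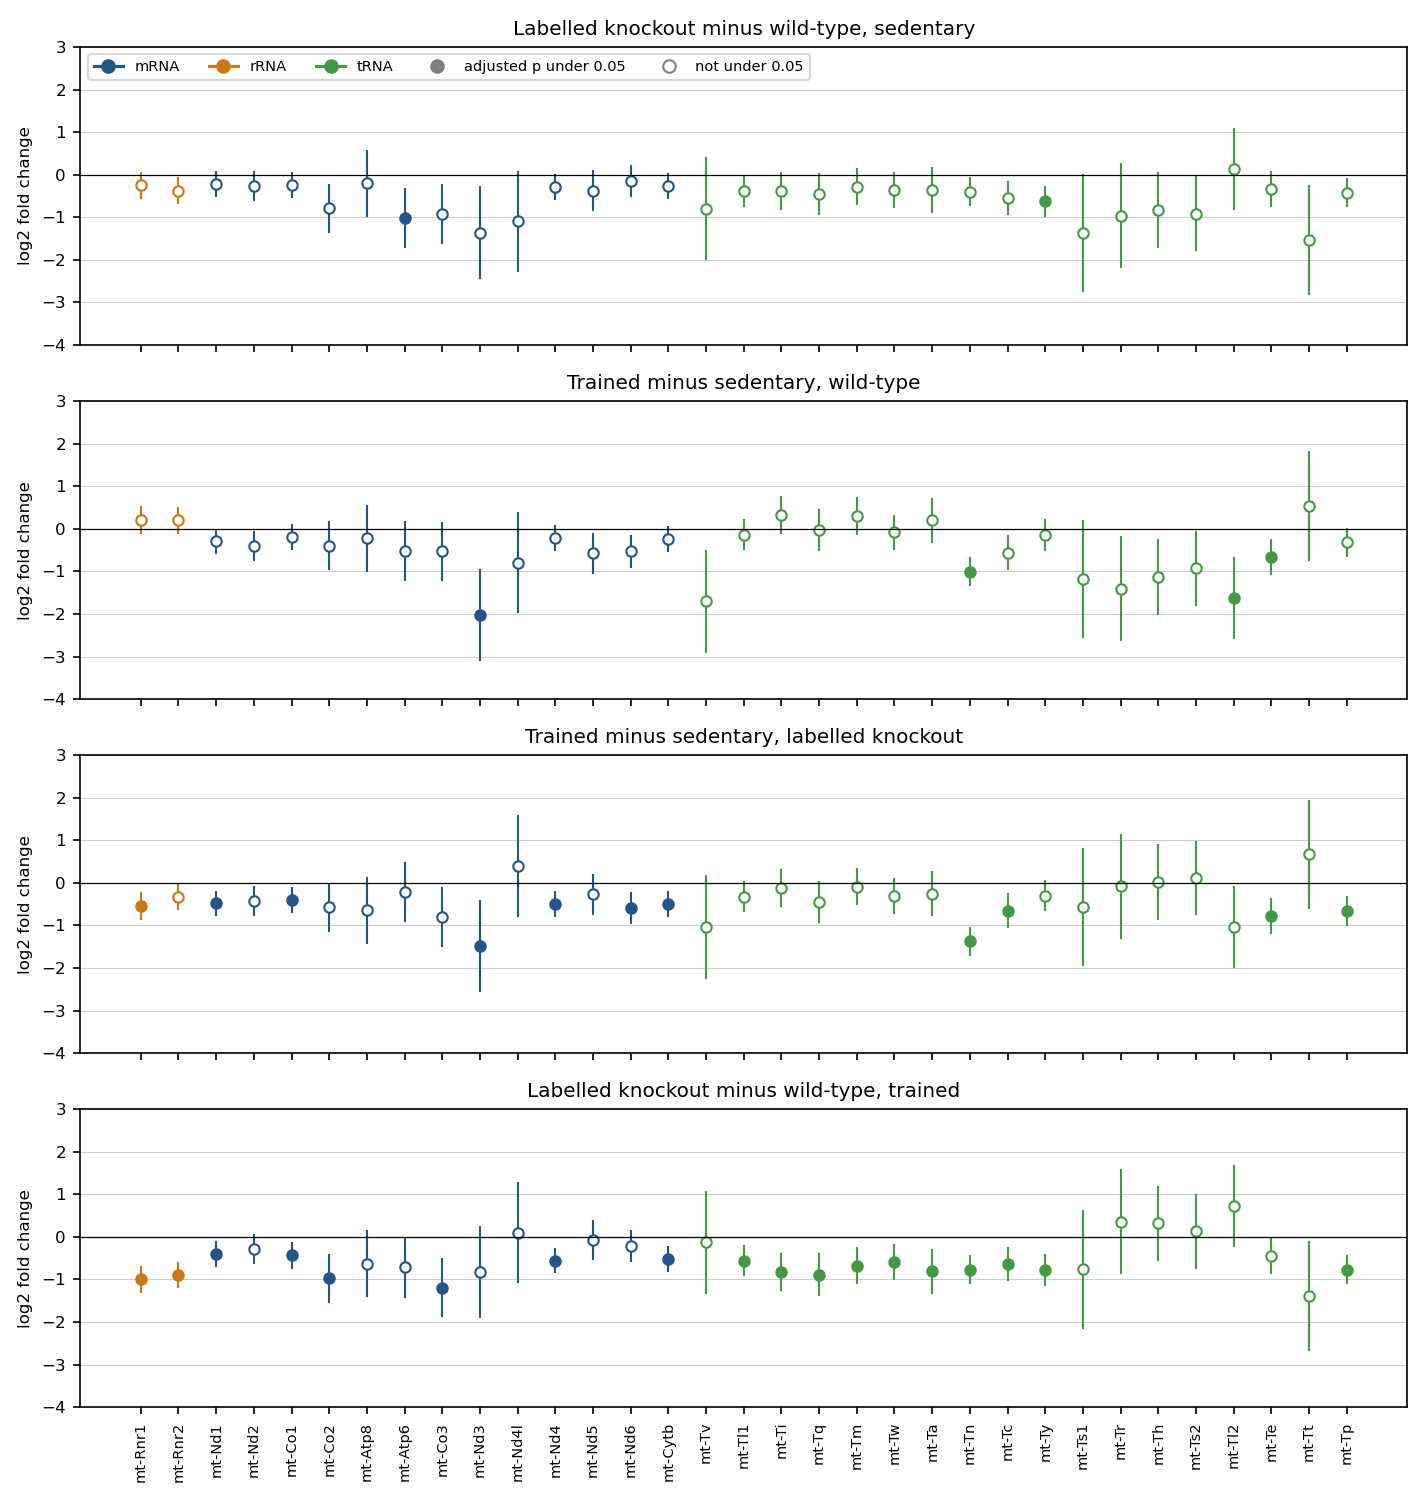
Log2 fold change of each of the 33 tested members (point) with its 95% interval (line) in the 4 comparisons between pairs of groups, rRNAs, mRNAs and tRNAs each in genome order; filled points have an adjusted p under 0.05 in limma. Filled points lie below 0 in every panel, and both rRNAs are above 0 only with training in wild-type hearts.

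The interaction asks whether training changed a transcript differently in the 2 labelled genotypes. Of 13 mRNAs and 18 tRNAs, 0 passed (0 of 13 and 0 of 18 also at an unadjusted p under 0.05 by limma, and 0 of 13 mRNAs with voom weights on recovered reads), beside 5% of all tested genes lower and 2.32% higher. The median over the mRNAs was -0.18 on the log2 scale, beside -0.013 over all genes, and on the TPM scale it was 0.012. The 95% interval for mt-Cytb ran from -0.65 to 0.13. The rRNA mt-Rnr1 passed, at -0.75 ± 0.20, adjusted p = 0.0346 (± SE, limma): it was at 1871 ± 220.1 FPKM in the sedentary wild-type group and 2165 ± 308 FPKM after training (SD, n = 5), and at 1568 ± 148 and 1099 ± 236 FPKM in the labelled knockout. The call was lost without any 1 of 9 libraries (sedentary wild-type replicates 1 and 2, sedentary labelled knockout replicates 2, 3 and 5, trained wild-type replicates 2 and 3 and trained labelled knockout replicates 1 and 3, adjusted p up to 0.0706) and when the 5 high-Arntl libraries were left out (-0.64, adjusted p = 0.616). mt-Rnr2 did not pass (-0.52 ± 0.20, adjusted p = 0.105).

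Averaging the sedentary and trained genotype differences gave 8 of 13 mRNAs, 2 of 2 rRNAs and 12 of 18 tRNAs lower in the labelled knockout, beside 15.5% of all tested genes, and 0 members higher, beside 14.5%. Averaging the training differences of both genotypes gave 9 of 13 mRNAs, 0 of 2 rRNAs and 6 of 18 tRNAs lower in trained hearts, beside 17.2%, and 0 members higher, beside 13.4%. The tRNAs called include mt-Tt for genotype and mt-Tv for training, which held at most 8 and 10 reads in any library. Among the mRNAs mt-Nd2 (-0.41), mt-Nd6 (-0.56) and mt-Nd1 (-0.39) passed for training (adjusted p of 0.00981, 0.00159 and 0.00362 by limma). Without the 5 libraries with high Arntl the mRNA counts were 3 and 2.

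Ratios of 2 transcripts in the same library do not depend on how libraries are scaled. Of 24 tests, on 6 ratios in 4 comparisons, 4 passed an exact two-sided permutation test with Benjamini-Hochberg adjustment over the 24. These 4 concerned 2 ratios, each in both comparisons that use the trained wild-type group. The log2 ratio of mt-Rnr2 to mt-Nd1, an rRNA against the mRNA that follows it on the same precursor, was -2.98, -2.95, -3.16, -3.06 and -3.26 in sedentary and -2.64, -2.72, -2.45, -2.30 and -2.83 in trained wild-type hearts. It was -3.18, -2.96, -3.08, -3.16 and -3.02 in trained labelled knockout hearts. All 5 trained wild-type values were above all those of the other groups compared. The difference was 0.50 (exact permutation p = 0.00794, adjusted p = 0.0476) for training in wild-type hearts and -0.49 (exact permutation p = 0.00794, adjusted p = 0.0476) for labelled genotype in trained hearts, where 0.00794 is the smallest p that 252 splits can give. Both comparisons use the same 5 trained wild-type libraries. In wild-type hearts training and Arntl level cannot be told apart for the ratios either. For training in labelled knockout hearts it was 0.16 (exact permutation p = 0.183, adjusted p = 0.313). Without sedentary labelled knockout replicate 1, the library of that group with high Arntl, it was 0.24 and passed (adjusted p = 0.0381, exact permutation test). The difference between the 2 training effects was not tested.

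The log2 ratio of mt-Nd6 to mt-Cytb, neighbours on opposite strands, was -1.08, -1.20, -0.94, -1.12 and -1.13 in sedentary and -1.23, -1.55, -1.28, -1.54 and -1.36 in trained wild-type hearts. In trained labelled knockout hearts it was -1.03, -1.12, -1.04, -1.21 and -1.02. The trained wild-type values were lower than all values of both other groups. The differences were -0.30 (exact permutation p = 0.00794, adjusted p = 0.0476) for training in wild-type hearts and 0.31 (exact permutation p = 0.00794, adjusted p = 0.0476) for labelled genotype in trained hearts. mt-Nd5, on the strand of mt-Cytb and overlapping the end of mt-Nd6, gave differences of the same sign against mt-Cytb (-0.34 and 0.45) that did not pass (exact permutation p = 0.119 and 0.0556). The ratio of the 2 rRNAs and the ratios of mt-Co1 and mt-Atp6 to mt-Cytb passed in no comparison, with mt-Co1 to mt-Cytb between 0.80 and 1.12 on the log2 scale in every library. Calls of both ratios were lost without any 1 of these libraries: any labelled knockout library or wild-type replicate 2 or 4 in trained hearts, and any sedentary library or trained replicate 2 or 4 in wild-type hearts (adjusted p up to 0.0952, exact permutation test). The groups still did not overlap in these omissions. The calls stood at an adjusted p of 0.0476, close to the threshold of 0.05, and were fragile to leaving out single libraries. Whether a difference rests on a single library was not tested. With the 4 high-Myl7 libraries left out, 3 trained libraries remain per genotype and the exact test could not pass, so only the values are given: 0.48, -0.53, -0.26 and 0.26 in the order above.

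**Figure D4:**
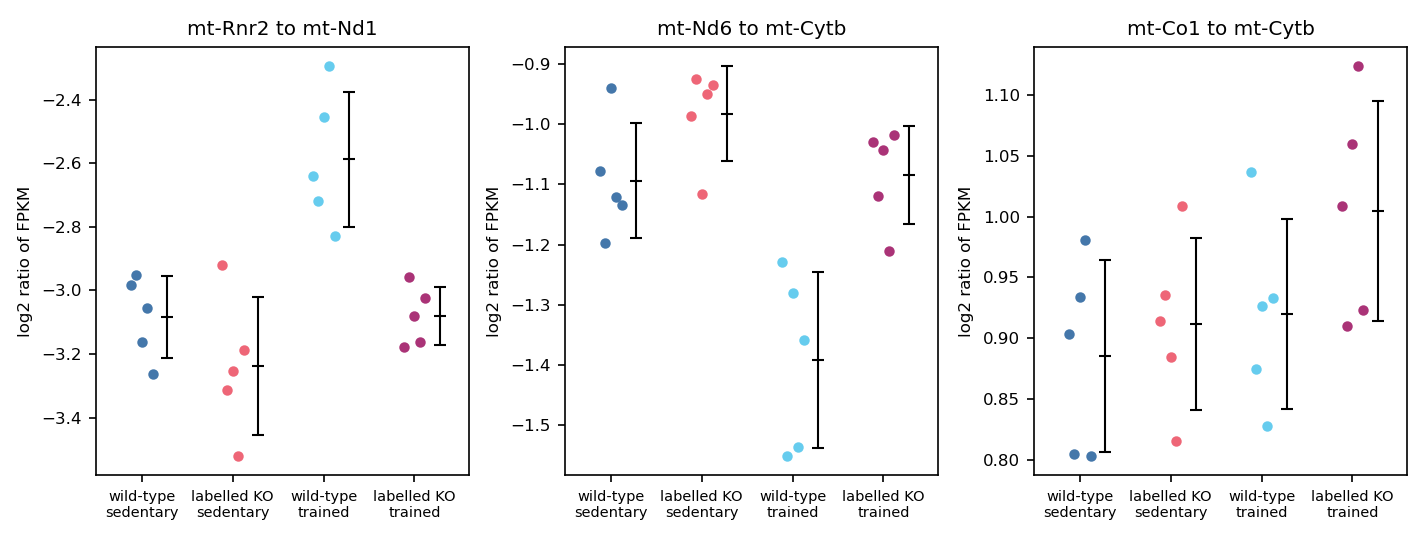
Log2 ratio of FPKM of 2 transcripts in each heart (points, 5 per group) with the group mean and SD (bars beside them). All 5 trained wild-type hearts lie above all other hearts in mt-Rnr2 to mt-Nd1 and below them in mt-Nd6 to mt-Cytb, and the groups overlap in mt-Co1 to mt-Cytb.

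Nuclear subunits of the same complexes are the partners of the mitochondrial products. Of 71 nuclear subunits of complexes I, III, IV and V tested, 70 fell with training in labelled knockout hearts (median log2 fold change -0.66) and 1 in wild-type hearts (median -0.047). Of all tested genes 16.3% fell in the first of these comparisons and 2.53% in the second. The interaction was lower for 67 of 71, beside 5% of all tested genes, and whether these counts differ from those of the mitochondrial mRNAs was not tested. By complex these were 34 of 36 in complex I, 8 of 9 in complex III, 12 of 12 in complex IV and 13 of 14 in complex V. Ndufs3, a core subunit of complex I, had an interaction of -0.66 ± 0.10, adjusted p = 0.00462 (± SE, limma), and Uqcrfs1, the Rieske protein of complex III, -0.59 ± 0.10, adjusted p = 0.00568. Cox5a of complex IV was at -0.51 and Atp5g1 of complex V at -0.75. On the TPM scale 12 of the 71 passed in the interaction, and without the 5 libraries with high Arntl 0 did (median -0.50).

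To set the mitochondrial mRNAs against the nuclear subunits directly, each library was scaled so that the median of the 36 nuclear complex I subunits was equal. On that scale 7 of 13 mRNAs were higher in trained labelled knockout than in trained wild-type hearts and 0 lower, among them mt-Nd5 (0.77), mt-Nd6 (0.62), mt-Nd2 (0.55) and mt-Cytb (0.32, adjusted p = 0.0150 by limma). The interaction was higher for 6 of 13 (mt-Co1, mt-Cytb, mt-Nd1, mt-Nd2, mt-Nd5 and mt-Nd6). Of all tested genes 83.4% were higher and 1.07% lower in the first of these comparisons, and 63.1% were higher and 0.197% lower in the second, so the mitochondrial mRNAs shared this direction with most genes. The rRNAs mt-Rnr1 and mt-Rnr2 were at -0.16 and -0.060 on that scale in trained hearts, and neither passed. This scaling moved the median of all genes by 0.033 to 0.72 on the log2 scale in the 5 comparisons, and the directions of the calls above turn with it.

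**Figure D5:**
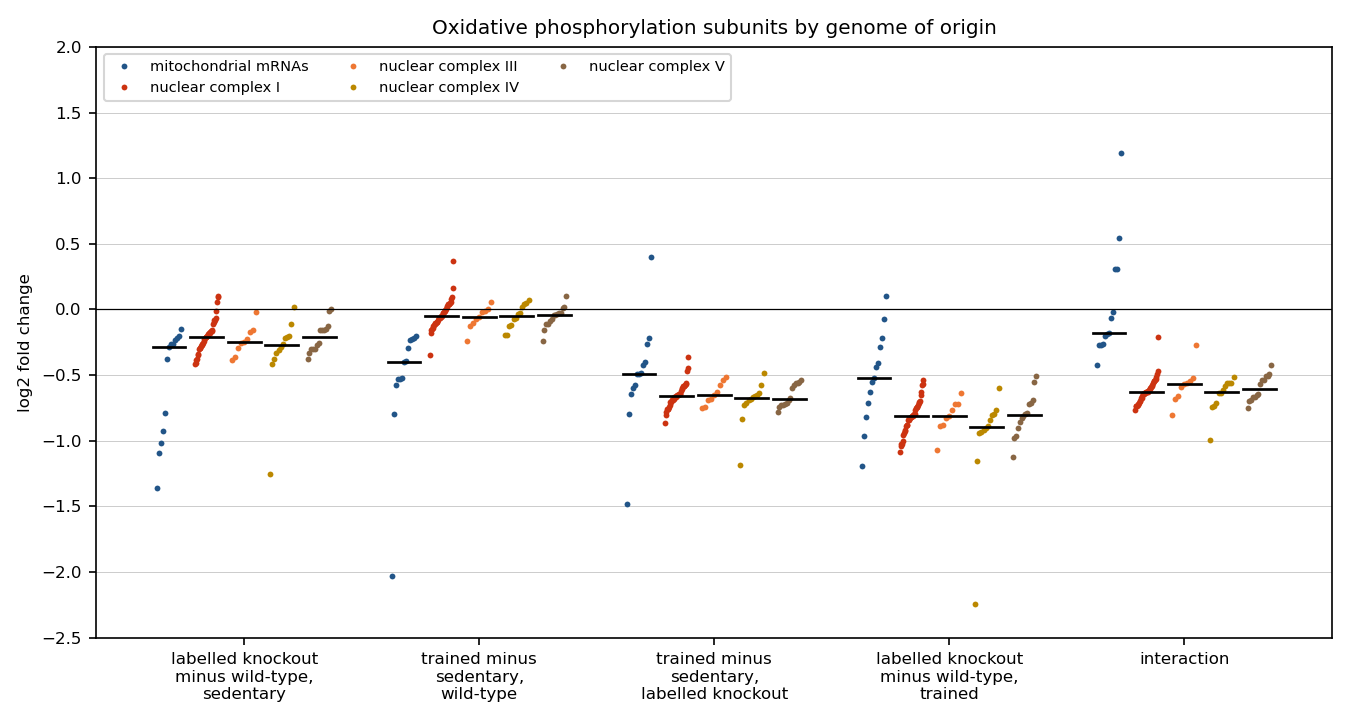
Log2 fold change in limma of the 13 mitochondrial mRNAs and of the nuclear subunits of complexes I, III, IV and V (36, 9, 12 and 14 genes) in the 4 pairwise comparisons and the interaction, 1 point per gene with the median as a bar. In the interaction the nuclear medians lie between -0.63 and -0.57 and the mitochondrial median is -0.18.

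Some of the nuclear genes that make and process these transcripts were called lower in the same 2 comparisons. Of 8 genes of mitochondrial transcription, 5 fell with training in labelled knockout hearts and 5 were lower by labelled genotype in trained hearts, with 0 higher in either. Tfam, which packages mitochondrial DNA and starts its transcription, was at 10.7 ± 0.724, 8.31 ± 0.449, 8.21 ± 0.964 and 6.63 ± 0.708 FPKM (SD, n = 5) in sedentary wild-type, sedentary labelled knockout, trained wild-type and trained labelled knockout hearts, and passed in all 4 pairwise comparisons. Polrmt, the mitochondrial RNA polymerase, was called in trained labelled knockout hearts against trained wild-type (-0.25 ± 0.076, adjusted p = 0.0171 by limma) and not by labelled genotype in sedentary hearts (0.056 ± 0.076, adjusted p = 0.652). Mterf2, a transcription termination factor family member, fell to 2.81 ± 0.397 FPKM in trained labelled knockout hearts from 4.32 ± 0.642 FPKM without training (-0.54 ± 0.11, adjusted p = 8.71e-04 by limma).

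RNA processing and stability genes were lower in 9 of 20 with training in labelled knockout hearts and in 12 of 20 by labelled genotype in trained hearts, where 1 was higher. Lrpprc, which stabilises mitochondrial mRNAs, was called by labelled genotype in sedentary (-0.52 ± 0.16, adjusted p = 0.0351) and trained hearts (-0.45 ± 0.16, adjusted p = 0.0417 by limma). Genes of rRNA modification and ribosome assembly were lower in 10 of 15 in each of the same comparisons, tRNA synthetases in 16 of 22 and 14 of 22, and tRNA modification enzymes in 3 of 16 and 6 of 16, with 0 higher. Genes of mitochondrial DNA replication were lower in 2 of 8 and 3 of 8. With training in wild-type hearts 5 genes of these 6 lists were lower and 0 higher. Of all tested genes 16.3% fell and 12.1% rose with training in labelled knockout hearts. By labelled genotype in trained hearts 15.4% were lower and 12.5% higher, and with training in wild-type hearts 2.53% and 2.94%. The counts of tRNA modification (3 of 16) and DNA replication (2 of 8) with training in labelled knockout hearts were not far from that share.

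Markers of other cells moved with the same comparisons. Macrophage markers rose in 6 of 6 with training in labelled knockout hearts and were higher in 6 of 6 by labelled genotype in trained hearts, and fibroblast markers in 5 and 6 of 7, while cardiomyocyte markers were lower in 6 and 6 of 9. Of all tested genes 12.1% rose and 16.3% fell in the first of these comparisons, and 12.5% were higher and 15.4% lower in the second. In sedentary hearts 3 of 6 macrophage markers were higher and 2 of 7 endothelial markers lower by labelled genotype, beside 6.96 and 6.32% of all tested genes. Of 7 endothelial markers, 5 were lower by labelled genotype in trained hearts. Summed macrophage markers ran from 51.0 to 81.9, 89.8 to 106, 61.4 to 101 and 121 to 211 FPKM in the 4 groups in the order above, and fibroblast markers from 149 to 179, 179.5 to 212, 143 to 227 and 323 to 571 FPKM, with no marker of these lists at 0 in any library. Smooth muscle markers summed to 48.9 to 157, 354 to 408, 88.9 to 195 and 489.9 to 547 FPKM, so the labelled genotypes did not overlap, and 1 of the 3 tested was called higher in each of the 4 pairwise comparisons. Atrial markers summed to 35.1 to 245, 267 to 904, 16.3 to 9330.1 and 1486 to 5631 FPKM, with 3, 1, 2 and 0 of the 6 at 0 in some library of these groups, and 1 of 6 was higher by labelled genotype in trained hearts and 0 in the other 3 pairwise comparisons. The part of all these cells in the differences of mitochondrial transcripts was not tested.

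Across the 20 libraries mt-Cytb followed other members of its genome. Its log2 level correlated with that of mt-Co1 (Pearson r = 0.97, Spearman rho = 0.95, permutation p = 1e-05 and 1e-05, the smallest 100000 permutations can give), mt-Nd6 (r = 0.89, rho = 0.82, permutation p = 1e-05 and 3e-05) and mt-Rnr2 (r = 0.79, rho = 0.68, permutation p = 6e-05 and 0.00137). As deviations from group means r was 0.91, 0.96 and 0.76, and without the 2 libraries farthest from the median of the other gene 0.95, 0.84 and 0.67. These values share a library and its scaling.

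Of the nuclear genes, Tfam tracked mt-Cytb over all libraries (r = 0.90, rho = 0.93, permutation p = 1e-05 and 1e-05, adjusted p = 3e-05 over 9 relations, r = 0.88 without 2 libraries) and within groups (r = 0.74, permutation p = 0.00552, adjusted p = 0.0124). Lrpprc did so over all libraries (r = 0.76, rho = 0.84, permutation p = 6e-05 and 1e-05, r = 0.70 without 2 libraries) while the relation within groups did not pass (r = 0.40, permutation p = 0.0961, adjusted p = 0.144). Polrmt had r = 0.49 overall (rho = 0.52, permutation p = 0.0276 and 0.0210, adjusted p = 0.0413, r = 0.46 without 2 libraries) and -0.19 within groups. Ppargc1a did not pass for Pearson's r (r = -0.38, adjusted p = 0.106, rho = -0.53 with adjusted p = 0.0267, r = -0.27 without 2 libraries), and its sign turned within groups (r = 0.39, permutation p = 0.0942). Neither Myl7 (r = -0.24, rho = -0.44, permutation p = 0.317 and 0.0540) nor Arntl (r = 0.41, rho = 0.25, permutation p = 0.0725 and 0.292) passed. The values of these nuclear genes too share a library and its scaling with mt-Cytb. How many of all genes follow mt-Cytb as closely was not computed.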

How the data were processed

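RNA from 20 mouse hearts was sequenced from poly(A)-selected, strand-keeping libraries, per the labels' protocols. The authors deposited 1 FPKM value per gene and library, and the submitters' processing notes name HISAT2 2.0.5, featureCounts 1.5.0-p3, DESeq2 1.20.0 and mm10 without roles. Read length, strand setting and the handling of reads on 2 genes or at 2 places are not given in the sources used here. FPKM times GENCODE M21 exon length gave whole reads, within 0.01 of a read, for 24971 of 25851 genes (96.6%) and for every member. Reads in the other genes made up 5.36% of the total. The library size recovered from the FPKM differed from the total of reads assigned to genes. It averaged 18.7, 19.4, 16.9 and 24.0 M in sedentary wild-type, sedentary labelled knockout, trained wild-type and trained labelled knockout libraries. The totals averaged 20.9, 20.4, 17.8 and 22.4 M. The divisor was thus not that total, and how it was set is not given in the sources used here. No further scaling was applied to the deposited FPKM.

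log2(FPKM + 0.5) of the 13723 genes with a mean of at least 0.5 FPKM was fitted with limma 3.58.1 (R 4.3.3), 4 groups in 1 fit, moderated with a mean-variance trend, two-sided, with Benjamini-Hochberg adjustment over all genes per comparison and a threshold of 0.05. Fold changes are on the log2(FPKM + 0.5) scale, which understates those of low genes. Of the 36 members 33 passed the filter, and mt-Td, mt-Tg and mt-Tk did not. The fit was tested on simulated data. Ratios were compared by exact permutation of 5 against 5, and relations by 100000 permutations. Nuclear copies were found with BLAST+ 2.17.0 among annotated transcripts, since the genome sequence was not used here. Read shares are given per library total, and each library's number of reads limits low tRNAs most.

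Any member could be named, with the planned ratio and relation genes, the copies, Myl7, Arntl, Ppargc1a and, per nuclear list, up to 4 genes past the threshold in order of p. The members and all lists were chosen with earlier results of these data known. Alternatives covered the filter, the pseudocount, library scaling, weights, a robust fit, voom, a replicate block, covariates and leaving libraries out. Adding the reads of the copies to their members was chosen after seeing the data.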

Additional observations from a re-analysis of the deposited data

Results flagged for a closer look

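Among 132 groups of 5 hearts, 5 held 1 library whose gap to its nearest neighbour was large for the range of its group. Chance gives about 1 in 20, so these 5 are no more than chance gives. The asparagine tRNA mt-Tn was at 1403 FPKM in sedentary wild-type replicate 1, the others lying between 1092 and 1159.8 FPKM. Without that library the training difference of mt-Tn in wild-type hearts was still called. The remaining 4 were tRNAs with few reads. mt-Tv was at 5.22 FPKM in trained wild-type replicate 3, mt-Ts1 at 3.19 FPKM in trained labelled knockout replicate 3, mt-Tr at 4.53 FPKM in trained labelled knockout replicate 5, and mt-Tt at 0.964 FPKM in sedentary labelled knockout replicate 3, the other libraries of its group being listed at 0.

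The 12S rRNA mt-Rnr1 differed in its response to training between the labelled genotypes, with an interaction of -0.75 on the log2 scale (adjusted p = 0.0346 by limma). The call was lost without any 1 of 9 libraries (adjusted p up to 0.0706) and at an adjusted p of 0.616 once the 5 high-Arntl libraries were left out.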

How the results depend on the processing

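The number of mitochondrial mRNAs called lower depended on the processing, and where no cause is named it was not tested. For labelled genotype in sedentary hearts the count was 1 as reported. It was 0 with no filter, with TPM scaling, with nuclear complex I scaling, without the libraries with high Arntl and with Arntl as a covariate, 2 with a mean of at least 2 FPKM or with the copies' reads added, 3 without the libraries with high Myl7 or with only the 2 groups fitted, and 4 with array weights. For training in wild-type hearts the count was 1. It was 0 with no filter, without the libraries with high Myl7, without those with high Arntl, with Arntl as a covariate, with the copies' reads added and with only the 2 groups fitted, 2 with array weights or a common sum without mitochondrial transcripts, and 3 with the replicate block. For training in labelled knockout hearts the count was 6. It was 0 with no filter, a common sum without mitochondrial transcripts or nuclear complex I scaling, and 1 with TPM scaling. For labelled genotype in trained hearts the count was 6. It was 2 with no filter, 3 with a common sum without mitochondrial transcripts or only the 2 groups, and 0 with nuclear complex I scaling. The averaged genotype count of 8 became 4 with no filter, 3 without high Arntl and 1 with nuclear complex I scaling, where 2 were higher. The averaged training count of 9 became 1 with no filter, 1 with nuclear complex I scaling, 5 without high Myl7 and 2 without high Arntl. Median-ratio scaling, the pseudocount, robust moderation and voom on recovered reads left every count within 1.5 times.

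Leaving out 1 library gave counts of 0 to 2 for labelled genotype in sedentary hearts, 0 to 4 for training in wild-type hearts, 4 to 7 for training in labelled knockout hearts and 4 to 6 for labelled genotype in trained hearts. Replicate numbers are shared between groups in the labels, with no stated pairing. Of 30 same-numbered pairs 12 had a correlation of deviations over 0.1 (range -0.278 to 0.484), and 9 correlated best with their own number. All pairs of replicate 1 (0.251 to 0.364) and of replicate 5 (0.0787 to 0.484) were positive. Those of replicates 2, 3 and 4 were mixed in sign. The main fit took no pairing because the labels state none, and whether replicate number had a shared effect was not tested. With the replicate block the mRNA counts were 1, 3, 6 and 6 in the 4 pairwise comparisons and 0 in the interaction.

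Median-ratio, TPM and common-sum scaling moved the median of all genes by up to 0.019, 0.25 and 0.20 on the log2 scale. Scaling to nuclear complex I moved it by up to 0.72 and turned these members above 0: mt-Tc 0.022, mt-Tp 0.0091, mt-Rnr2 0.35, mt-Nd4 0.18, mt-Cytb 0.18, mt-Co1 0.27, mt-Rnr1 0.13, mt-Nd1 0.19, mt-Ti 0.55, mt-Nd6 0.077 and mt-Tm 0.58 with training in labelled knockout hearts, mt-Ty 0.061, mt-Tc 0.20, mt-Tn 0.067, mt-Tp 0.069, mt-Nd4 0.28, mt-Cytb 0.32, mt-Co1 0.40, mt-Nd5 0.77, mt-Tl1 0.27, mt-Nd2 0.55, mt-Nd1 0.43, mt-Tw 0.25, mt-Nd6 0.62, mt-Tm 0.16 and mt-Ta 0.014 by labelled genotype in trained hearts, mt-Cytb 0.38, mt-Co1 0.43, mt-Nd2 0.61, mt-Nd1 0.45 and mt-Nd6 0.57 in the interaction, mt-Nd4 0.10, mt-Cytb 0.13, mt-Te 0.12, mt-Co1 0.18, mt-Tl1 0.047, mt-Nd1 0.21, mt-Tw 0.042, mt-Nd6 0.34 and mt-Tm 0.040 in the averaged genotype difference and mt-Rnr2 0.29 and mt-Co1 0.055 in the averaged training difference. The counts of higher mRNAs became 7 in trained hearts and 6 in the interaction.

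Each of the 4 ratio differences that passed lost its call without any 1 of 7 of the 10 libraries compared, with exact permutation adjusted p from 0.0381 to 0.0952 over the 10 omissions. The groups still did not overlap in any omission, while the calls stood close to the threshold. The calls were thus fragile to leaving out single libraries, and all 4 use the same trained wild-type libraries. The 4 differences ranged from 0.42 to 0.56 and from -0.55 to -0.42 for mt-Rnr2 to mt-Nd1 (training in wild-type, labelled genotype in trained hearts) and from -0.34 to -0.26 and 0.27 to 0.35 for mt-Nd6 to mt-Cytb. Without high Myl7 they were 0.48, -0.53, -0.26 and 0.26, and the exact test on the libraries left could not pass. For training in labelled knockout hearts mt-Rnr2 to mt-Nd1 ranged from 0.088 to 0.24, the latter passing without the labelled knockout library with high Arntl. mt-Nd5 to mt-Cytb in trained hearts ranged from 0.37 to 0.59 and passed without trained wild-type replicate 1 (adjusted p = 0.0381, exact permutation test). As deviations from group means the relation of mt-Cytb to Polrmt was -0.19 and to Lrpprc 0.40. Depth limits the tRNAs mt-Tv, mt-Ts1, mt-Tr and mt-Tt, with at most 16 reads in a library.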
